A study of Mus musculus with 9 samples.

Results

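Fos, Fosb, Btg2 and Klf6, the immediate early genes chosen by symbol, were followed through 9 mouse brain libraries. They are 4 of the 2996 genes in the table analysed here, and all 4 passed the filter of more than 1 FPKM in at least 3 libraries. The genes were chosen by name with earlier results of these data known, and not by a threshold on a value. Libraries came from perfused brain of mice described as aged 24 months, 3 per group for the groups C, L and H. The exposed animals had perfluorooctane sulfonate (PFOS), a persistent fluorinated surfactant, in their drinking water for 7.5 months, at 0.5 µg per litre in the low group, read here as L, and at 50 µg per litre in the high group, read here as H. No dose is given for C, the comparison group, and the sources used here name no strain, sex or hour of death. The labels do not say whether each library came from its own animal, so the p-values speak to the spread among these libraries alone, and that spread may be technical. In bulk tissue, fewer cells of a type and less RNA per cell cannot be told apart.

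Immediate early genes are transcribed within minutes of a stimulus from transcription factors already present in the cell, without new protein synthesis. In neurons the trigger is synaptic activity and calcium entry, which act on promoters through CREB at cyclic AMP response elements (CRE) and through SRF with its partners at CArG boxes. Their messenger RNAs are short-lived, so their level at death is read as a trace of recent activity. Fos and FosB are leucine zipper proteins that pair with Jun proteins to form the transcription factor AP-1. Btg2 is an antiproliferative protein that recruits the CCR4-NOT deadenylase to messenger RNAs, and Klf6 is a zinc finger transcription factor that binds GC-rich DNA. On GRCm38, in GENCODE M21, Fos (ENSMUSG00000021250) lies on the plus strand of chromosome 12 from 85473890 to 85477273. Fosb (ENSMUSG00000003545) lies on the minus strand of chromosome 7 from 19302696 to 19310051. Btg2 (ENSMUSG00000020423) lies on the minus strand of chromosome 1 from 134075170 to 134079120. Klf6 (ENSMUSG00000000078) lies on the plus strand of chromosome 13 from 5861482 to 5870394. Each value covers all annotated exons of its gene, so splice forms, such as the truncated deltaFosB form of Fosb, were not separated.

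The 250 bases before the start of each gene are shown because the 4 genes differ in which activity-related motifs these bases hold. They are RefSeq windows on GRCm38.p6, written 5′ to 3′ on the strand of the gene, at chr12:85473640-85473889 for Fos, chr7:19310046-19310295 for Fosb, chr1:134079156-134079405 for Btg2 and chr13:5861239-5861488 for Klf6. The start meant here is the RefSeq one, which differs from the GENCODE start given above for Fosb, Btg2 and Klf6. Capitals mark the CRE (TGACGTCA), its core (TGACG), the AP-1 site (TGANTCA), the CArG box and the TATA box (TATAAA), searched on both strands, and cores inside a complete CRE are counted as well.
Fos: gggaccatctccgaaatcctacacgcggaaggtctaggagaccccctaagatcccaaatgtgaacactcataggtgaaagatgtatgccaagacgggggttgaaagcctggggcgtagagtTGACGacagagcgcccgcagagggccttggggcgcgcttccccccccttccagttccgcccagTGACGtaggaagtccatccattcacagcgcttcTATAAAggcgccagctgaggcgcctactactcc
Fosb: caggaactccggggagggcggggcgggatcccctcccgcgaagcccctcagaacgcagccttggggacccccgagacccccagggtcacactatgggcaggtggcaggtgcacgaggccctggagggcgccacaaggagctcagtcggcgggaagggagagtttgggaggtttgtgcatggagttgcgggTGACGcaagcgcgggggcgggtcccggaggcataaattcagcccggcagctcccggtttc
Btg2: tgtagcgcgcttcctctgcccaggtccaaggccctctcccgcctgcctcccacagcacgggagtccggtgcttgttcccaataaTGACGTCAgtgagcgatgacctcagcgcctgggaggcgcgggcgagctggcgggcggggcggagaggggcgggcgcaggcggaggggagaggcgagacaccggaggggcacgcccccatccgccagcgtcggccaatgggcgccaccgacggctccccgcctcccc
Klf6: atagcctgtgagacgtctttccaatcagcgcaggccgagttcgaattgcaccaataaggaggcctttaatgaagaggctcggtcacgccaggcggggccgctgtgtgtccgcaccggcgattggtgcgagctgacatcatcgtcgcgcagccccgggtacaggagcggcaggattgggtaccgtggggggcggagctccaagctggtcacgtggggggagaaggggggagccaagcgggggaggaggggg
The CRE core was found in 3 of the 4 windows. Fos held it at 129 to 125 and again at 66 to 62 bases before its start, Fosb at 60 to 56, and Btg2 inside the complete CRE at 166 to 159. Klf6 held no match to any of the 5 capitalised motifs. Of 32851 windows of the same length over all genes, 17.8% held the core and 1.55% the complete CRE. The TATA box was found in Fos alone of the 4, at 33 to 28 bases before the start, and in 12.4% of all windows. No window of the 4 held a CArG box (1.47% of all windows) or an AP-1 site (6.75%), and the serum response element for which Fos is known lies farther upstream than the bases shown. The GC box (GGGCGG) was found in all 4, against 32.7% of all windows, and CCAAT boxes (CCAAT, 33.9% of all windows) were found 4 times in Klf6 and 2 times in Btg2. G and C made up 58.4% of the Fos window, 68.8% of Fosb, 73.2% of Btg2 and 64.8% of Klf6, against a median of 52.4%. These matches describe the letters only.

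Levels were deposited as FPKM, fragments per kilobase of transcript scaled to the reads of the library. Genes can thus be set side by side only per length of their joined annotated exons, whichever transcripts were present. The denominators recovered from the values were 15371513 to 20431208 reads per library, and 95% intervals on a single value are exact Poisson intervals that cover counting error only. Neuronal messages were present throughout, with the enolase gene Eno2 at 138.0 to 229.7 FPKM, but markers of brain regions differed between libraries of the same group. C1 and L3 stood apart, with scores of -28.2 and -19.2 on the leading principal component over the 2226 tested genes against -2.40 to 11.1 in the other 7 libraries. In C1 the cerebellar receptor gene Gabra6 had 253.7 FPKM, in L3 55.0, and in the others 0 to 14.8. Differences of the 4 genes between groups are therefore also given without C1 and L3.

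Klf6 was the most abundant of the 4 in all 9 libraries, at 12.6 to 19.8 FPKM with H1 and H3 among the 3 highest. Fosb was below Fos in all 9 libraries, and below Btg2 in all but C3. Its order against Fos depends on the lengths used, 6243 bases for Fosb and 2352 for Fos. In reads Fosb was above Fos in C3 (373 against 265), L1 (284 against 176) and L2 (320 against 311). The same held in H1 (178 against 160) and H2 (258 against 147), and Fos had more reads in the other libraries. Fos and Btg2 had no fixed order, since Fos was the higher in 5 libraries (C2, C3, L1, L3 and H3) and Btg2 in the other 4. The mean log2 ratio of Fos to Btg2 was 0.17 with an SD of 0.66 over libraries. Klf6 exceeded Fos by 1.62 ± 0.45 and Btg2 by 1.80 ± 0.50 log2 units (SD, n = 9).

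In C1, C2 and C3 Fos stood at 4.48, 8.19 and 7.33 FPKM, in L1, L2 and L3 at 4.56, 6.61 and 3.55, and in H1, H2 and H3 at 3.33, 3.36 and 8.15. C2, H3, C3 and L2 were the 4 highest libraries, and each exposure group had libraries among these 4 and among the other 5. These values rested on 147 to 371 reads, and the counting interval of H3, 7.34 to 9.04, was far from that of H2, 2.84 to 3.95. The highest library was thus 2.46 times the lowest, and the 3 groups overlapped.

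Fosb ranged more widely, from 0.243 FPKM in C1 to 3.89 in C3, a ratio of 16.0. C2 was at 2.26, L1, L2 and L3 at 2.77, 2.56 and 0.463, and H1, H2 and H3 at 1.40, 2.22 and 2.67. C1 and L3 lay below every other library, with 26 and 53 reads where the others had 178 to 373. The extremes of all 9 libraries both belonged to group C.

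Levels of Btg2 were 6.61, 4.39 and 2.73 FPKM in C1, C2 and C3, 4.20, 6.93 and 2.88 in L1, L2 and L3, and 5.05, 4.02 and 6.55 in H1, H2 and H3. Its order over libraries differed from that of the Fos family: C1, the lowest for Fosb, was among the 3 highest for Btg2, and C3, the highest for Fosb, was the lowest. The 3 C libraries had Klf6 at 13.9, 16.5 and 18.8 FPKM, the L libraries at 12.6, 17.6 and 13.1, and the H libraries at 18.3, 14.4 and 19.8, each in the order of their numbers. Its highest library was 1.57 times its lowest.

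**Figure D1:**
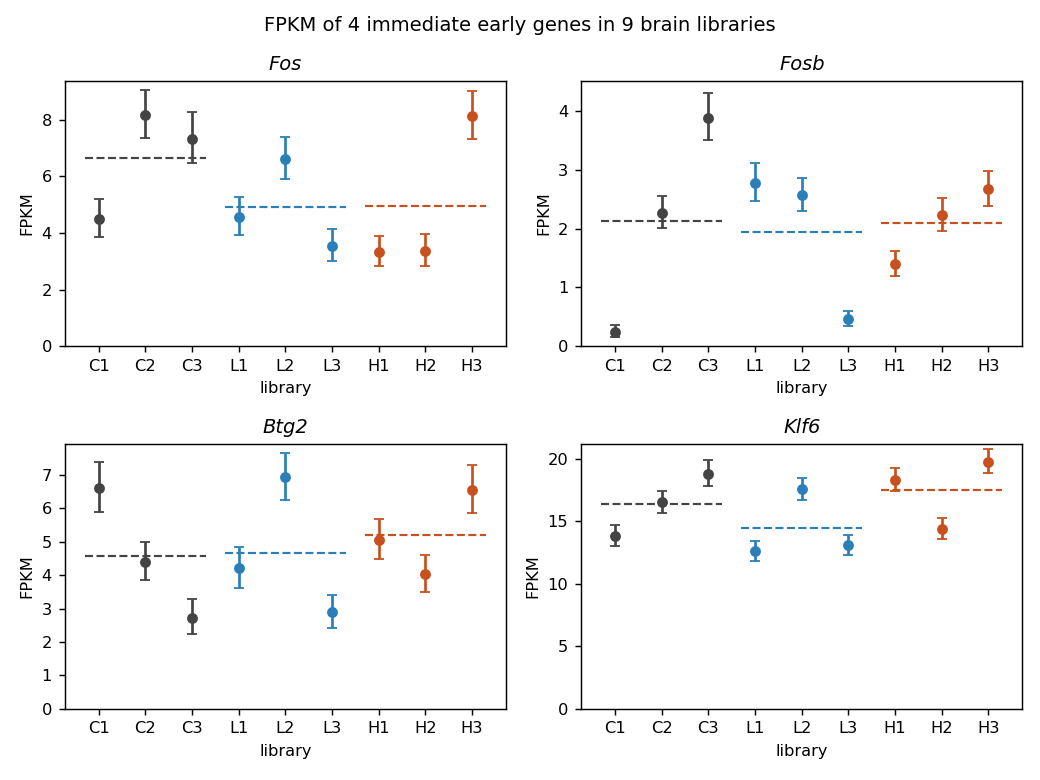
FPKM of each gene (vertical axes, from 0) in the 9 libraries, grouped as C, L and H. Points are libraries, bars their 95% counting intervals and dashed lines the group means. Libraries of the same group lie far apart, as for Fos in H at 3.33, 3.36 and 8.15.

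The spread over libraries was set beside that of genes of like level. On the scale of log2(FPKM + 1) the SD over 9 libraries was 0.46 for Fos, 0.66 for Fosb, 0.40 for Btg2 and 0.23 for Klf6, where counting error alone gave 0.08, 0.06, 0.08 and 0.04. Among tested genes within 0.5 log2 units of the same mean level, 86.6% varied less than Fos, 91.6% less than Fosb, 80.7% less than Btg2 and 50.2% less than Klf6. Exposure groups accounted for 19.2% of the variance of Fos, 1.74% of Fosb, 5.24% of Btg2 and 26.0% of Klf6, and for 19.7% in the median tested gene.

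Regional markers moved with some of these values. The pallial list, of which 4 of 20 genes were measured, Stx1a, Mef2c and Prox1 among them, had a mean centred log2 level of -2.0 in C1 and -2.16 in L3. Prox1 went against this score, with its highest level in C1 at 11.4 FPKM, 6.41 in L3 and 2.46 to 6.64 in the other 7 libraries. The pallial score was -0.09 in L1, 0.37 and 0.48 in H2 and H1, and 0.77 to 0.92 in C3, C2, H3 and L2. These last 4 were also the 4 libraries with the highest Fos, and C1 and L3 were the 2 with the least Fosb. The low end of Fos did not follow the pallial score. H1 and H2, with positive scores, had the least Fos, at 3.33 and 3.36 FPKM, below C1 at 4.48 and L3 at 3.55. The cerebellar list, with 5 of 19 genes measured, was highest in C1 (4.16), L3 (2.33) and L1 (1.11), with -1.74 to -0.18 in the other 6. The striatal list, with 3 of 14 measured, was at 0.93 to 2.19 in L1, H2, C3 and C2 and at -1.69 to -1.05 in the other 5, so that libraries high and low in Fos were found on either side. Scores spanned -0.39 to 0.69 for neuronal genes (4 of 19 measured), -0.77 to 0.56 for microglial genes (2 of 18) and -0.27 to 0.16 for vascular genes (6 of 20), each with its lowest or highest value in C1, L2, L3 or H1. The part of regional content in the spread among libraries of a group was not tested. In the differences between groups it enters as a covariate, the first component of cerebellar and pallial markers. With it Fos in H against C was at -0.63 log2 units and in L against C at -0.30, where the fit without it, described further on, had -0.43 and -0.37.

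**Figure D2:**
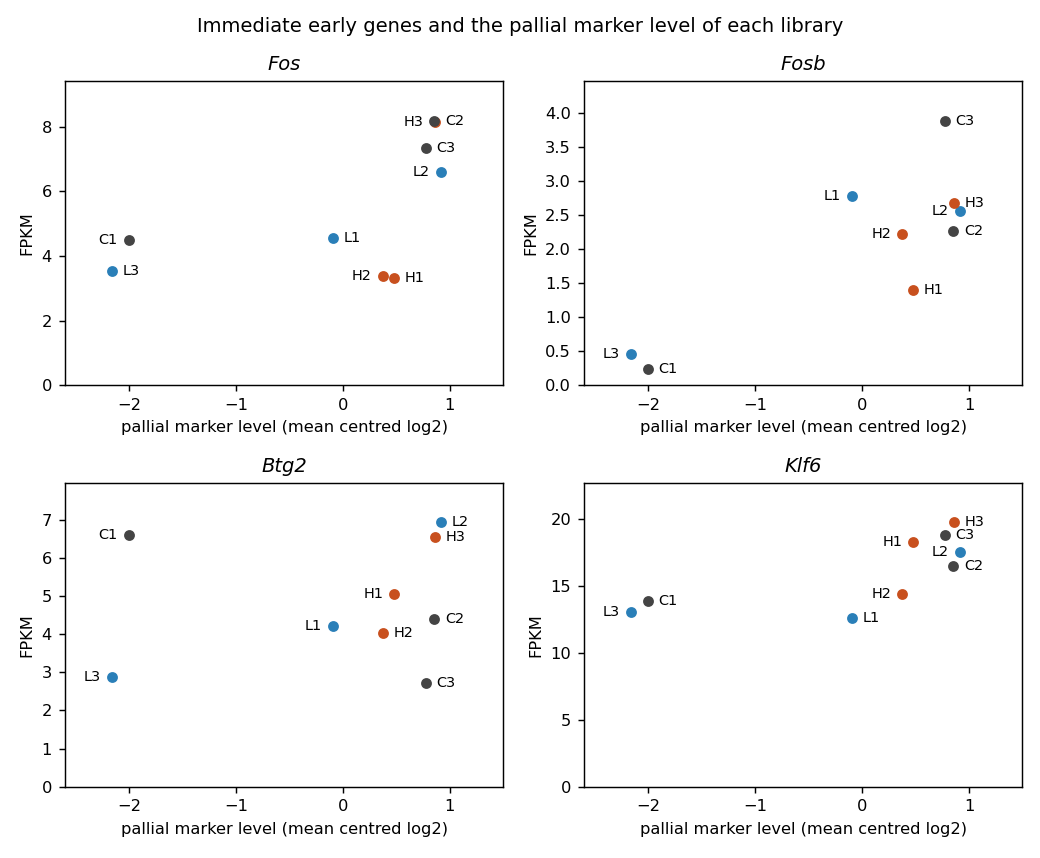
FPKM of each gene against the mean centred log2 level of 4 pallial markers, with 1 labelled point per library (grey for C, blue for L, orange for H). C1 and L3, at -2.0 and -2.16, hold the lowest Fosb, while Btg2 in C1 is among its 3 highest values.

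No pair of the 4 genes passed the threshold in a correlation across libraries. Correlations of log2(FPKM + 1) were computed for the 6 pairs over 9 libraries, with exact two-sided permutation p-values adjusted over the 6 pairs. Fos and Klf6 had a Pearson r of 0.60 (exact permutation p = 0.0909, adjusted 0.348) and a Spearman rho of 0.37 (exact permutation p = 0.336, adjusted 0.673). Fos and Fosb had r = 0.56 (exact permutation p = 0.129, adjusted 0.348) and rho = 0.60 (exact permutation p = 0.0968, adjusted 0.581). Fosb and Klf6 had r = 0.51 (exact permutation p = 0.174, adjusted 0.348) and rho = 0.38 (exact permutation p = 0.313, adjusted 0.673). Btg2 had r = 0.21 to Fos, -0.12 to Fosb and 0.26 to Klf6 (exact permutation p of 0.486 to 0.745, adjusted 0.696 to 0.745) and rho of 0.12, -0.23 and 0.18 (exact permutation p of 0.552 to 0.776, adjusted 0.772 to 0.776). These low r depended on single libraries. Without C3 Btg2 had r = 0.50 to Fos, 0.17 to Fosb and 0.60 to Klf6, the last the highest of the 6 pairs. Without C1 its r was 0.29 to Fos, 0.21 to Fosb and 0.44 to Klf6. Other libraries lowered its r when left out. To Fos, Fosb and Klf6 it was 0.03, -0.53 and 0.06 without L3, and 0.03, -0.23 and 0.09 without H3. Without the 2 libraries farthest from the median of the first gene, r was 0.48 for Fos and Klf6, 0.55 for Fos and Fosb, and 0.05, -0.42 and 0.55 for Btg2 with Fos, Fosb and Klf6. The relation of Fosb to Klf6 depended on the libraries kept. Its r was 0.03 without C1 and L3, and 0.76 without L1 (exact permutation p = 0.0304, adjusted 0.183). Fos and Klf6 had r = 0.85 without H1 (exact permutation p = 0.0198, adjusted 0.119). Without C1 and L3 Fos and Fosb had r = 0.59 (exact permutation p = 0.168, adjusted 0.682) and Fos and Klf6 r = 0.49 (exact permutation p = 0.267, adjusted 0.682).

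The ratio of Fosb to Fos, both per length, was lowest in C1 at 0.0541 and in L3 at 0.131. In the other 7 libraries it lay between 0.276 in C2 and 0.661 in H2. Its log2 was -2.33 ± 1.70 in C, -1.67 ± 1.14 in L and -1.15 ± 0.51 in H (SD, n = 3). The difference of H from C was 1.17 (exact permutation p = 0.4), that of L from C 0.65 (p = 0.6) and that of H from L 0.52 (p = 0.6), where 0.1 is the smallest p that 3 libraries against 3 allow. Without C1 and L3 these differences were 0.23, 0.34 and -0.11, the last of the opposite sign.

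Among the other tested genes, those whose log2(FPKM + 1) correlated most with each gene over the 9 libraries were named as a description, without a test. Named for Fosb were Cacnb1, a calcium channel subunit (r = 0.99), Mrtfb, a coactivator of SRF (0.98), Kat2a, a histone acetyltransferase (0.96), and Fam163b (0.96). Over the 7 libraries other than C1 and L3 these r were 0.98, 0.95, 0.84 and 0.92. Levels of Mrtfb were 12.4 FPKM in C1, 11.7 in L3, 27.5 in H1, and 38.1 to 55.8 in the other 6, with its highest value in C3, as for Fosb. For Fos they were the peptidase gene Dpp9 (0.95), the splicing kinase gene Srpk1 (0.89), Clec11a (0.87), the tau tubulin kinase gene Ttbk1 (0.86) and Stard3 (0.82). Dpp9 moved little in size, from 7.15 FPKM in H2 to 9.02 in C2. For Btg2 they were Brat1 (0.92), the transfer RNA methyltransferase gene Trmt1 (0.91), the kinase gene Taok1 (0.90), Pcsk4 (0.90) and the DNA glycosylase gene Mpg (0.89). For Klf6 they were the homeobox gene Tshz3 (0.97), Glt8d2 (0.94), Hkdc1 (0.93), the receptor phosphatase gene Ptprk (0.93) and Herc4 (0.90). The 4 lists of 5 shared no gene. The highest mean r over the 4 genes was 0.69, for Arhgef25, and Rundc3a (0.68), Clec11a (0.66) and Cyth2 (0.66) were also among the 5 highest.

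The comparison of H with C asked whether the higher PFOS concentration went with another level of these genes. The mean of Fos was lower in H, at 4.95 ± 2.78 against 6.67 ± 1.94 FPKM (SD, n = 3), a log2 difference of -0.43 ± 0.34 (SE) on the scale of log2(FPKM + 1), where changes of low genes come out too small. H1 and H2 were below every C library and H3 was above C1 and C3, so the groups overlapped. Btg2 was at 5.21 ± 1.27 against 4.57 ± 1.95 FPKM (0.20 ± 0.33), Fosb at 2.10 ± 0.649 against 2.13 ± 1.83 (0.17 ± 0.53) and Klf6 at 17.5 ± 2.79 against 16.4 ± 2.48 (0.09 ± 0.18). For Fosb the FPKM mean was thus slightly lower in H and the mean of log2 values higher, so its direction depends on the scale. None of the 4 passed the threshold of 0.05 (limma, adjusted p = 0.890 for Fos, 0.914 for Btg2, 0.947 for Fosb and 0.930 for Klf6), where 0% of tested genes were called. Unadjusted p was under 0.05 for 71 genes, or 3.19%, and for 0 of the 4. With limma-voom 0 genes were called and 68 were at that level. Groups did not overlap in 0 of the 4 genes, against 10.3% of tested genes. The 95% interval of the Fos difference ran from -1.20 to 0.35, that of Btg2 from -0.55 to 0.94, that of Fosb from -1.05 to 1.39 and that of Klf6 from -0.32 to 0.50. Fos kept its direction in all 23 alternatives, from -0.85 to -0.24. The value of -0.85 came from limma-voom with quality weights, where its 95% interval, -1.66 to -0.036, left out 0. There its unadjusted p was 0.0425 and its adjusted p 0.785 (limma-voom), with 111 tested genes at an unadjusted p under 0.05. Without C1 and L3 Fos was at -0.65, Fosb at -0.39, Klf6 at -0.022 and Btg2 at 0.45.

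For the lower concentration, L was set against C, which uses the same C libraries. The mean of Fos was lower in L as well, at 4.91 ± 1.56 against 6.67 ± 1.94 FPKM (SD, n = 3), a log2 difference of -0.37 ± 0.34 (SE) with a 95% interval of -1.15 to 0.40. Of the L libraries L3 alone was below all of C, and none was above C2. Klf6 was at 14.4 ± 2.75 against 16.4 ± 2.48 FPKM (-0.18 ± 0.18, interval -0.59 to 0.23), with L1 and L3 below every C library and L2 between C2 and C3. Fosb was at 1.93 ± 1.28 against 2.13 ± 1.83 FPKM (-0.0034 ± 0.53) and Btg2 at 4.67 ± 2.06 against 4.57 ± 1.95 (0.02 ± 0.33). None of the 4 passed (limma, adjusted p = 0.998 for Fos, Klf6 and Btg2 and 0.999 for Fosb), as for all tested genes (0% called). Of all tested genes 87, or 3.91%, and of the 4 genes 0 had an unadjusted p under 0.05, and limma-voom gave 77. The groups did not overlap in 0 of the 4, against 6.65% of tested genes. Without C1 and L3 the differences were -0.43 for Fos, -0.23 for Klf6, -0.12 for Fosb and 0.52 for Btg2.

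H against L set the higher concentration beside the lower one. Klf6 had the largest difference relative to its error, at 17.5 ± 2.79 against 14.4 ± 2.75 FPKM (SD, n = 3), or 0.26 ± 0.18 log2 units (SE) with a 95% interval of -0.15 to 0.68. H1 and H3 were above every L library, and H2 was below L2. The difference was positive in all 23 alternatives, from 0.14 to 0.41. Fosb differed by 0.18 ± 0.53, Btg2 by 0.17 ± 0.33 and Fos by -0.05 ± 0.34. For Fos the FPKM means, 4.95 in H and 4.91 in L, had the opposite order to the log2 values. The 4 genes had adjusted p of 0.961 to 0.977 (limma), where again 0% of tested genes were called, 30 genes (1.35%) were at an unadjusted p under 0.05, with 32 by limma-voom, and 0 of the 4 were among them. The groups overlapped in all 4 genes, against 9.07% of tested genes without overlap. Without C1 and L3 the differences were 0.21 for Klf6, -0.27 for Fosb, -0.069 for Btg2 and -0.22 for Fos.

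Pooling L and H against C, the 6 exposed libraries had Fos at 4.93 ± 2.01 FPKM (SD, n = 6) against 6.67 ± 1.94 (n = 3). The log2 difference was -0.40 ± 0.29 (SE), with a 95% interval of -1.07 to 0.27 and an adjusted p of 0.933 (limma). An exact two-sided permutation test over the 84 regroupings gave p = 0.214, where 0.0238 is the smallest they allow, and 3 of the 6 exposed libraries lay below all of C. Btg2 differed by 0.11 ± 0.28, Fosb by 0.08 ± 0.46 and Klf6 by -0.05 ± 0.16, with exact permutation p of 0.714, 0.952 and 0.857. The FPKM mean of Fosb, 2.02 against 2.13, was again in the other direction. Without C1 and L3 the differences were -0.54 for Fos, 0.48 for Btg2, -0.26 for Fosb and -0.12 for Klf6, with adjusted p of 0.851 to 0.877 (limma). In the 3 comparisons of 3 libraries with 3, exact permutation p was 0.2 to 1 for the 4 genes, and adjusted over all 16 tests it was 1 throughout. In this comparison 0% of tested genes were called, 91 (4.09%) had an unadjusted p under 0.05, with 80 by limma-voom, and 2.29% had groups that did not overlap, none of them among the 4. In the F test over the 3 groups the 4 genes had adjusted p of 0.958 to 0.981 (limma), with 0% of tested genes called and 47 (2.11%) at an unadjusted p under 0.05, and without C1 and L3 the adjusted p was 0.939 for all 4.

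**Figure D3:**
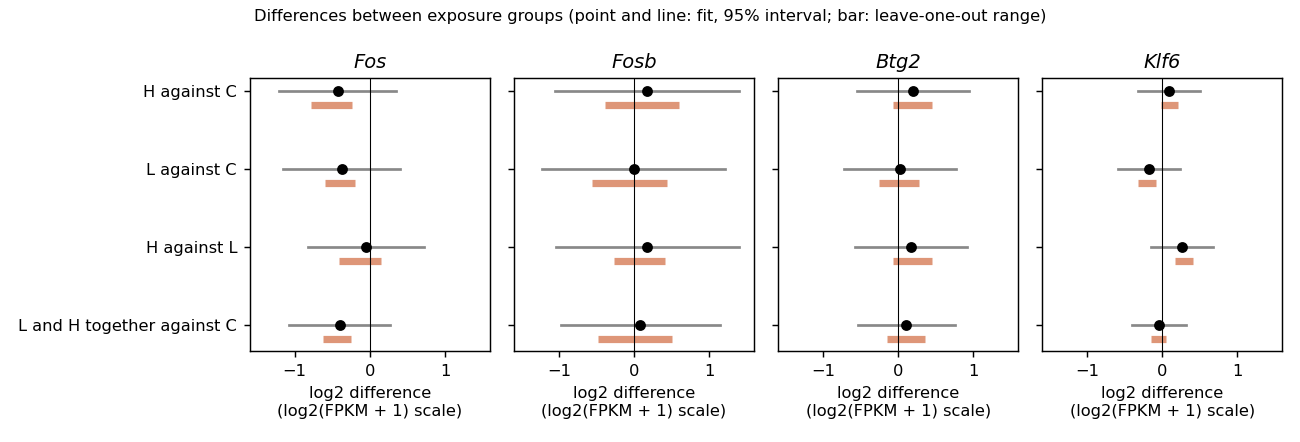
Log2 differences on the log2(FPKM + 1) scale (horizontal axes) for each gene and comparison. Points and grey lines are the fitted difference and its 95% interval, orange bars the range when each library is left out in turn. Every interval includes 0, and the Fos bars for H and L against C lie below 0 throughout, from -0.78 to -0.20.

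Of 67 other immediate early and activity-induced genes listed, 13 were measured and tested. They were Ccn2, Dusp6, Gadd45b, Homer1, Ier3, Klf4, Per1, Sgk1, Tnfaip3, Nfkbia, Sertad1, Id2 and Id3. None was called in any comparison, where 0% of all tested genes were. Counts of higher and lower genes are by the sign of the log2 difference, which can be opposite to that of the FPKM means, as for Homer1 in H against C. In H against C 10 of the 13 were higher and 3 lower, where 52.7% of all tested genes were higher, with a median log2 difference of 0.04 against 0.02. In L against C 6 were higher and 7 lower (median -0.0047 against 0.03, with 56.3% of tested genes higher). In H against L 10 were higher and 3 lower (0.13 against -0.03, with 44.9% higher), and with L and H pooled 7 were higher and 6 lower (0.0036 against 0.02, with 55% higher). Of 12 genes of the AP-1 family, Fos and Fosb were the only members analysed here. Homer1, whose short form is induced by synaptic activity, had 3.94, 24.7 and 25.7 FPKM in the C libraries, 10.95, 17.0 and 2.69 in the L libraries, and 10.4, 15.8 and 18.5 in the H libraries, in the order of their numbers. Like Fosb it was lowest in C1 and L3. Dusp6, a phosphatase that switches off ERK, had its lowest levels in C1, at 7.48 FPKM, and in L3, at 8.49, and was at 12.9 to 28.0 in the rest. Of the 13 genes 7 had their lowest level in C1 and 3 in L3. The share of all tested genes lowest in these libraries is not given here, so the count is not a trait of this list. A low value in C1 lowers the mean of C. Counts of higher and lower genes, for this list and those below, include both libraries and were not repeated without them. Nfkbia, the inhibitor of NF-kappaB, averaged 17.4 ± 4.18 FPKM over H against 10.7 ± 3.92 over C (SD, n = 3), the only one of the 13 at an unadjusted p under 0.05 there (0.68 ± 0.26, limma, adjusted p = 0.890). Klf4, a zinc finger factor of the same family as Klf6, was the only one in H against L (-0.46 ± 0.19, limma, adjusted p = 0.961).

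Sgk1 and Nfkbia are also targets of the glucocorticoid receptor, and the list of 9 tested glucocorticoid responsive genes, of 20, lay higher in H than in C for 8 (median 0.51 against 0.02), with 3 at an unadjusted p under 0.05 and 0 called. Over all tested genes 52.7% were higher and 3.19% had an unadjusted p under 0.05. The list shares Sgk1, Nfkbia, Per1 and Gadd45b with the other immediate early genes. The 2 libraries lowest in Fos, H1 and H2, had Sgk1 at 62.2 and 59.4 FPKM, against 46.5 in H3, 54.4, 29.4 and 52.7 in L1, L2 and L3, and 21.3 to 43.3 in C. The clock gene Per1, which is induced by light, glucocorticoids and activity and cycles with the time of day, was at 20.9 ± 2.79 FPKM in C, 17.3 ± 4.31 in L and 19.7 ± 2.33 in H (SD, n = 3). Of 4 tested clock genes, of 19, 0 were called. By log2 difference 3 were lower in H than in C (median -0.13) and 4 in L than in C (-0.35). Over all tested genes 52.7% and 56.3% were higher in these comparisons. In each, 1 of the 4 had an unadjusted p under 0.05, against 3.19% and 3.91% of tested genes. These were Nr1d1 in H (-0.67 ± 0.23, SE, limma, adjusted p = 0.890) and Hlf in L (-0.69 ± 0.25, limma, adjusted p = 0.998).

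Signalling to these promoters was covered by 18 tested genes of 51 listed, and 0 were called or at an unadjusted p under 0.05 in any comparison. Over all tested genes 0% were called, and only 1.35% to 4.09% had an unadjusted p under 0.05, so 0 of 18 says little about this list. By the sign of the log2 difference, 10 were higher and 8 lower in H against C, with a median of 0.12 against 0.02 over all tested genes. In L against C 8 were higher and 10 lower (-0.03 against 0.03). Of all tested genes 52.7% were higher in H against C and 56.3% in L against C. Elk1, the SRF partner phosphorylated by ERK, was at 12.9 ± 0.823 FPKM in H, 13 ± 4.14 in L and 16.9 ± 2.56 in C (SD, n = 3), with differences from C of -0.36 ± 0.23 and -0.40 ± 0.23 (SE). Crtc1, a coactivator of CREB, differed from C by -0.30 ± 0.19 in H and -0.26 ± 0.19 in L, and Mef2d, an activity-regulated factor, by -0.34 ± 0.22 and -0.31 ± 0.22. The kinase gene Araf differed by 0.26 ± 0.18 and 0.25 ± 0.18. Prkar1a, a regulatory subunit of protein kinase A, differed from C by 0.29 ± 0.16 in H, and the catalytic subunit gene Prkaca by 0.35 ± 0.16 in L. All had adjusted p of 0.890 or above (limma). Elk1, Crtc1 and Mef2d each had their lowest level of the 9 libraries in L3. For Elk1 this was 8.21 FPKM, with 15.4 in both L1 and L2 against 19.9, 15.6 and 15.3 in C1, C2 and C3. For Crtc1 it was 11.5, with 19.8 in L1 and 16.9 in L2 against 19.9, 17.4 and 19.7 in C. For Mef2d it was 33.5, with 54.3 and 46.3 against 52.8, 46.3 and 66.4. Differences of these genes without C1 and L3 are not given here.

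**Figure D4:**
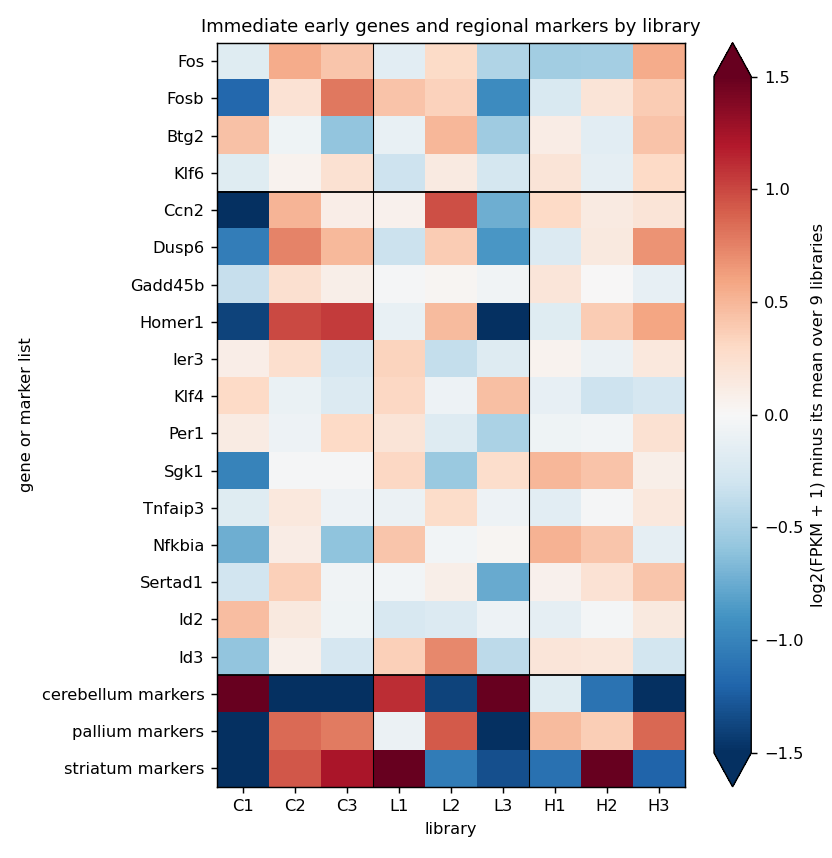
Log2(FPKM + 1) minus its mean over 9 libraries (colour) for the 4 genes, 13 other immediate early genes and the mean of 3 regional marker lists, in rows, by library, in columns. Colours are cut at -1.5 and 1.5. Fosb, Homer1 and Dusp6 share their low values in C1 and L3, where pallial markers are lowest, while Btg2 is high in C1 and low in L3.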

How the data were processed

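Messenger RNA libraries were made from total RNA of mouse brain, per the labels. The deposited table holds FPKM for each gene in each library and the length of the gene, per the file headers. GRCm38 is the build in the submitters' processing notes. No aligner or counting program is named in the sources used here. The table's coordinates equalled GENCODE M21 for 20 of 2996 genes, so those printed come from GENCODE M21 by Ensembl identifier, and its lengths equalled the summed exons of the 4 genes. FPKM times length gave whole reads within 0.01 for 100% of values, which recovered the reads behind each value. No 2 libraries of a group were alike within sampling noise, with a chi-square of 28.0 to 216.0 per degree of freedom.

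The deposited values were taken to log2(FPKM + 1), and limma was run on the 2226 genes over 1 FPKM in at least 3 libraries. All 9 libraries were fitted with group means, mean-variance trend and robust moderation, in limma 3.58.1 under R 4.3.3, with Benjamini-Hochberg adjustment over all tested genes and a threshold of 0.05. The fit was tested on simulated counts first. Exact permutation tests are two-sided. Members, lists and rules were chosen with earlier results of these data known. Named genes were the 4 members, the 5 genes most correlated with each, and list members. The rule also named the 5 upstream genes with the smallest p in each exposure comparison and the 2 most abundant genes of each marker list. A few genes under this rule are not reported here. The list symbols of the MRTF genes were updated after the data were seen. Alternatives changed pseudocount, filter, scaling, model, covariate, block and libraries. Python 3.11.15, pandas 2.3.3, scipy 1.17.1 and matplotlib 3.10.9 were used.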

Additional observations from a re-analysis of the deposited data

How the results depend on the processing

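No gene was called in any comparison under any alternative, with the lowest adjusted p of 0.268 in L against C with the regional marker covariate, and none of the 4 genes crossed the threshold. Fos in H against C, in L against C and in L and H together, and Klf6 in L against C and in H against L, kept their sign throughout. Other signs turned. For H against C, limma-voom with quality weights put Fosb at -0.30 and Klf6 at -0.050, the regional marker covariate put them at -0.23 and -0.0068, and leaving out C1 and L3 at -0.39 and -0.022. For L against C, Fosb was 0.14 and 0.034 with pseudocounts of 0.1 and 0.5, 0.21 with limma-voom and 0.14 with the covariate, and Btg2 was -0.062 with quantile normalization and -0.015 with median of ratios. For H against L, Fos was 0.023 with quantile normalization, Fosb was -0.056 with quality weights, -0.38 with the covariate and -0.27 without C1 and L3, and Btg2 was -0.069 without C1 and L3. For L and H together, Fosb was -0.041 with quantile normalization, -0.27 with quality weights, -0.045 with the covariate and -0.26 without C1 and L3. The ratio of Fosb to Fos in H against L was -0.11 without C1 and L3.

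Leaving out each library in turn gave, for H against C, -0.39 to 0.60 for Fosb, -0.065 to 0.45 for Btg2 and -0.022 to 0.21 for Klf6. For L against C it gave -0.56 to 0.44 for Fosb and -0.25 to 0.28 for Btg2. For H against L it gave -0.41 to 0.15 for Fos, -0.27 to 0.42 for Fosb and -0.069 to 0.45 for Btg2. For L and H together it gave -0.48 to 0.51 for Fosb, -0.15 to 0.36 for Btg2 and -0.15 to 0.053 for Klf6. The correlation of Fosb and Btg2 ranged from -0.53 to 0.21, and the log2 difference of the Fosb to Fos ratio from -0.29 to 1.36 for L against C, -0.11 to 1.0 for H against L and -0.028 to 1.62 for L and H together. The cause of these turns was not tested.

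No pairing by replicate number was seen, with same-numbered libraries correlated over 0.1 in 3 of 9 pairs (-0.51 to 0.68). This check cannot exclude a pairing, because deviations from a mean of 3 libraries are tied to each other. With the replicate number as a block no gene was called either, and the Fos difference in H against C had an adjusted p of 0.860 (limma). Fosb in C1 rests on 26 reads, with a counting interval of 0.159 to 0.356 FPKM. The depth of C1, 17162748 reads, was above that of C3, 15371513 reads, where Fosb had 373 reads.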
